A study of Mus musculus with 10 samples.

Results

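The 8 genes described here encode 3 ephrins (*Efna1*, *Efnb1* and *Efnb2*) and 5 Eph receptors (*Epha2*, *Epha4*, *Ephb2*, *Ephb3* and *Ephb4*) of arterial, venous and angiogenic endothelium. They were taken by gene name from the 27024 named rows of the FPKM table, all 8 were found there, and the 6 whose FPKM averaged 1 or more across the 10 samples entered the test. Bulk RNA-seq was performed on bEnd.3 cells, a wild-type immortalized mouse brain endothelial line grown in serum-containing medium, in 5 samples given saline (replicates 1, 2, 3, 4 and 5) and 5 samples given 5 nM StcE (replicates 1, 2, 3, 5 and 6) for 16 h. StcE is a mucinase of bacterial origin, a protease for densely O-glycosylated mucin domains. The comparison asks how transcript levels changed in these cells after the enzyme was given. No sample was given inactive StcE, so effects of mucin degradation and of the added protein itself cannot be told apart here. All samples came from the same line, nothing in the labels says that replicates came from separate cultures, and p-values therefore measure only the spread between these samples.

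Ephrins and Eph receptors signal at contacts between cells. Ephrin-A proteins are held in the membrane by a lipid anchor and ephrin-B proteins span it, and both bind Eph receptor tyrosine kinases on a neighbouring cell, with forward signalling into the receptor cell and reverse signalling into the ephrin cell. In blood vessels, ephrin-B2 marks arterial and EphB4 marks venous endothelium, and their contact keeps the 2 kinds of vessel apart, whereas ephrin-A1 and EphA2 act in angiogenesis and in the control of endothelial contacts.

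After StcE, the most expressed ephrin genes fell and the most expressed receptor genes moved in opposite directions. *Efnb2* fell by 31.6% and *Efna1* by 20.7% in mean FPKM (fragments per kilobase of gene, scaled for depth), *Ephb4* fell by 9.25% and *Epha2* rose by 12.8%. *Efnb1* and *Epha4* were also lower in mean FPKM but did not pass the test. Differences were tested with limma on log2(FPKM + 1) over 11062 genes with Benjamini-Hochberg adjustment, and log2 fold changes below are on that scale, StcE minus saline, which understates the change of genes with low FPKM. Of the 6 members tested, 3 were lower and 1 was higher with an adjusted p under 0.05, the threshold used throughout. In the background, 11.9% of all genes tested passed it, 709 lower (6.41%) and 611 higher (5.52%). The members were chosen with earlier results of these data known, so these shares describe them and do not test for enrichment. The saline and StcE samples did not overlap for 3 of the 6, 2 lower and 1 higher after StcE, against 10.7% of all genes tested (5.80% lower and 4.85% higher). With each sample scaled to the same total FPKM, the split over all genes was 518 lower and 272 higher.

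Between 21864604 and 33147402 whole fragments per sample were recovered from the FPKM, and the log2 fold changes of the 11062 genes had a median of -6.6e-04. Endothelial markers were abundant in every sample. Their summed FPKM over 10 genes was 1770 to 1900 with saline and 1710 to 1790 with StcE. Over all genes tested, 6.41% were lower and 5.52% higher past the threshold. Of these markers, 5 (*Pecam1*, *Tek*, *Erg*, *Esam* and *Tie1*, which the study itself names as downregulated) were lower and 1 (*Egfl7*) higher. *Pecam1*, for example, was at 302 ± 10.4 FPKM in the saline group and 279 ± 10.5 in the StcE group (SD, n = 5 each). In bulk RNA, fewer cells of a type and less RNA per cell cannot be told apart, and the part of these shifts in the changes of the ephrins was not tested. Markers of other cell types stayed low, with summed FPKM of 2.20 to 5.37 for 7 pericyte and smooth muscle genes, 1.20 to 1.54 for 4 fibroblast genes and 0.0373 to 0.115 for 5 astrocyte genes over both groups. Sums were 1.91 to 3.27 for 5 neuronal genes, nearly all of it from *Tubb3*, which was higher after StcE (2.18 ± 0.319 to 2.88 ± 0.273 FPKM), while *Rbfox3*, *Syt1* and *Snap25* were listed at 0 in every saline sample. The sums were 0.139 to 0.315 for 3 oligodendrocyte genes and 0.0619 to 0.224 for 5 microglia and macrophage genes.

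The sequences before the start sites of *Efnb2*, *Ephb4* and *Epha2* are shown because these genes carry the change and no annotated exon lies in the window. *Efna1*, the other changed gene, is left out because 191 of the 250 bases before its RefSeq start are annotated as exon of a longer transcript. A second RefSeq start of *Efna1* has a window with no annotated exon (chr3:89279646-89279895), which is not printed here. Each line gives the 250 bases before the start site, 5′ to 3′ on the strand of the gene, from RefSeq on GRCm38.p6. Capitals mark the GC box GGGCGG, a binding motif of SP and KLF factors, in either orientation. *Efnb2* is at chr8:8661243-8661492 on the minus strand, *Ephb4* at chr5:137349859-137350108 and *Epha2* at chr4:141300971-141301220, both on the plus strand.
Efnb2: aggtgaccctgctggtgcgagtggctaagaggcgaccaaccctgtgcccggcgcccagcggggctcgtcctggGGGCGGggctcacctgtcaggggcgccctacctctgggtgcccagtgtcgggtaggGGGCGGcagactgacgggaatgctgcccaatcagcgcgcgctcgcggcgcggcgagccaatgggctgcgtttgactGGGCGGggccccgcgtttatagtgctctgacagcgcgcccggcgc
Ephb4: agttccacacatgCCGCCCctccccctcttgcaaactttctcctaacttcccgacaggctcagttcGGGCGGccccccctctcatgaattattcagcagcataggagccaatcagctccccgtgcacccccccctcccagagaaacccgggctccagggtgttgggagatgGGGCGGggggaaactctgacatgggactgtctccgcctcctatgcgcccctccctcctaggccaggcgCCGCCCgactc
Epha2: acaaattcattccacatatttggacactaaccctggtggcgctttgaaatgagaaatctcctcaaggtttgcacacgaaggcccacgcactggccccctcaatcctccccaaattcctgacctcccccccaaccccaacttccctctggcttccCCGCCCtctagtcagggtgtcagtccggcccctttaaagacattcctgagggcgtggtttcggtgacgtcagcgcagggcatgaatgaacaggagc

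The *Efnb2* window held 3 GC boxes, the *Ephb4* window 4 and the *Epha2* window 1, and 32.7% of all 32851 RefSeq windows of this length held at least 1. The windows had a GC content of 72%, 64% and 55.6%, against a median of 52.4% over all windows. Of the 8 members, 6 had a GC box in the first window listed for the gene. *Epha4* and *Ephb3* were among these 6, so the motif was not particular to the changed genes. Exact matches to CCGGAA, a strict form of the ETS site (in 12% of all windows), and to TGGGAA for RBPJ (21.6%) were searched on both strands. So were TGANTCA for AP-1 (6.75%) and CACGTG, a strict form of the E-box (6.02%). None of these strings was present in the 3 windows printed above. Looser forms were not searched, and the shorter GGAA of ETS sites does occur in each of the 3, on either strand. These matches are a description of the letters and not of binding.

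*Efnb2*, the gene of the arterial ligand ephrin-B2, had the largest log2 fold change of the 6 tested members. It lies on GRCm38 chromosome 8 from 8617434 to 8661242 on the minus strand. Its FPKM with saline was 25.9, 23.82, 25.68, 24.17 and 23.66 in replicates 1, 2, 3, 4 and 5, and with StcE it was 16.24, 17.46, 16.36, 16.78 and 17.43 in replicates 1, 2, 3, 5 and 6. Every StcE sample lay well below every saline sample, with a gap between the groups wider than the range within either. The mean went from 24.65 ± 1.06 (SD, n = 5) to 16.85 ± 0.575 (SD, n = 5), a log2 fold change of -0.52 (SE 0.0333 and, by limma, adjusted p = 1.8e-06). An exact two-sided permutation test over 252 arrangements gave p = 0.00794, and groups of 5 and 5 can give none smaller. Ordered from the lowest log2 fold change, *Efnb2* stood at rank 17 of the 11062 genes tested, and each sample held 2619 to 5400 of its fragments.

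*Efna1* encodes ephrin-A1, the main A-type ligand of EphA2 in endothelium, and lies on chromosome 3 from 89271733 to 89281142 on the minus strand. With saline it was at 17.54, 18.94, 17.52, 17.13 and 17.54 FPKM, and with StcE at 14.31, 12.87, 15.77, 13.64 and 13.71 FPKM, in the same order of replicates. The groups did not overlap, although StcE replicate 3 came closer to the saline samples than the other StcE samples did, and saline replicate 2 lay above the rest of its group. The mean went from 17.73 ± 0.697 to 14.06 ± 1.09 FPKM (SD, n = 5 each), a log2 fold change of -0.32 (SE 0.0466 and, by limma, adjusted p = 0.00154, exact permutation p = 0.00794), on 616 to 1001 fragments per sample.

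*Efnb1* encodes ephrin-B1, a second transmembrane ephrin, which binds EphB receptors, and lies on chromosome X from 99136130 to 99148991 on the plus strand. It was at 3.905, 3.484, 3.697, 2.943 and 3.361 FPKM with saline and at 2.463, 3.364, 2.707, 2.696 and 2.974 FPKM with StcE. Of the StcE samples, 3 lay below every saline sample, while StcE replicates 2 and 6 lay within the saline range. The log2 fold change was -0.22 (standard error 0.0704) and did not pass the threshold (limma adjusted p = 0.0631, exact permutation p = 0.0397), with a 95% interval from -0.38 to -0.068. Without StcE replicate 2 the limma adjusted p was 0.0253, and without saline replicate 4 it was 0.0322.

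**Figure D1:**
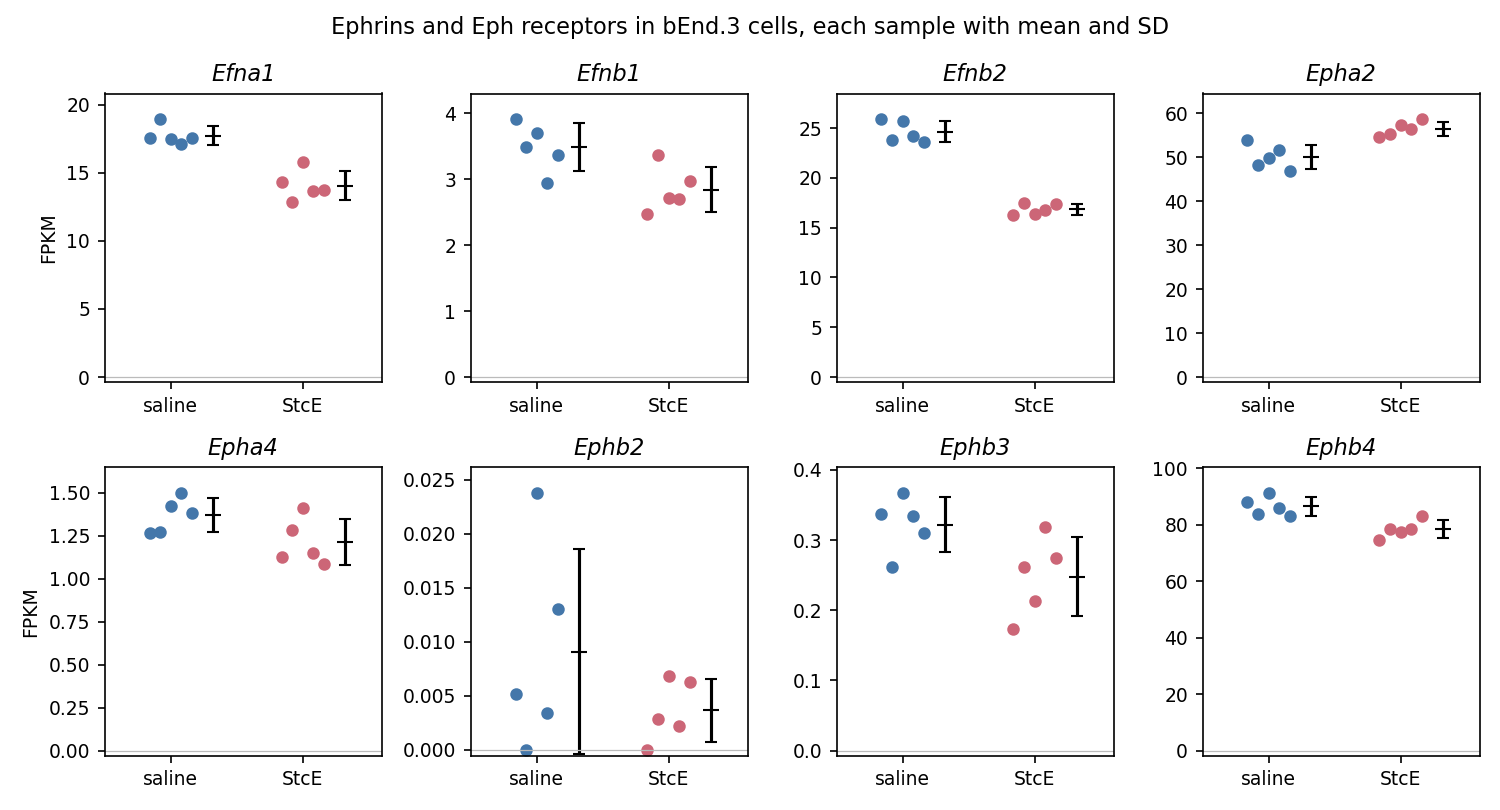
FPKM of the 8 genes (vertical axes, a scale for each panel) in the 5 saline and 5 StcE samples, as a point per sample, with the group mean and SD as the bar at the right of each group. *Efnb2* and *Efna1* lie lower and *Epha2* higher in every StcE sample than in any saline sample, and *Ephb2* stays under 0.024 FPKM throughout.

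*Ephb4*, the gene of the venous receptor for ephrin-B2, was the most expressed of the 8. It lies on chromosome 5 from 137350109 to 137378669 on the plus strand, and 0.711% of its exonic bases are shared with *Zan* on the other strand. Its FPKM was 88.23, 83.75, 91.38, 86.07 and 83.21 with saline and 74.71, 78.7, 77.34, 78.59 and 83.3 with StcE. Of the StcE samples, 4 lay below every saline sample and StcE replicate 6 lay just above the lowest saline sample, so that the groups overlapped. The mean went from 86.53 ± 3.37 to 78.53 ± 3.11 FPKM (SD, n = 5 each), a log2 fold change of -0.14 (SE 0.0334 and, by limma, adjusted p = 0.0219, exact permutation p = 0.0159). This call rested on single libraries, since the limma adjusted p was 0.0560 without StcE replicate 3 and 0.0563 without saline replicate 1, and it was 0.0604 when all 27024 genes were tested with no minimum FPKM.

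*Epha2*, a receptor for ephrin-A1, was the single member that rose. It lies on chromosome 4 from 141301240 to 141329384 on the plus strand. With saline it was at 53.84, 48.16, 49.73, 51.59 and 46.79 FPKM and with StcE at 54.62, 55.23, 57.3, 56.34 and 58.59 FPKM. The groups did not overlap, but saline replicate 1 lay within 1 FPKM of the lowest StcE sample. The mean went from 50.02 ± 2.79 to 56.42 ± 1.59 FPKM (SD, n = 5 each), a log2 fold change of 0.17 (SE 0.0367 and, by limma, adjusted p = 0.0123, exact permutation p = 0.00794), on 5315 to 9288 fragments per sample.

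*Epha4*, a receptor that binds ephrins of both types, lies on chromosome 1 from 77367185 to 77515088 and was expressed far less. Its values were 1.266, 1.273, 1.422, 1.5 and 1.384 FPKM with saline and 1.124, 1.285, 1.411, 1.152 and 1.088 FPKM with StcE, and the groups overlapped in StcE replicates 2 and 3. The log2 fold change was -0.10 (SE 0.0542 and, by limma, adjusted p = 0.259), with a 95% interval from -0.22 to 0.019, and 213 to 394 fragments per sample lay behind it.

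*Ephb3* and *Ephb2*, receptors for B-type ephrins, were below the minimum FPKM and are given as values. *Ephb3* (chromosome 16, 21204755 to 21223305) was at 0.3367, 0.2613, 0.3674, 0.3348 and 0.3098 FPKM with saline and at 0.1728, 0.2615, 0.2128, 0.3181 and 0.2746 FPKM with StcE, on 27 to 74 fragments per sample. The groups overlapped, and the difference was not past the threshold by an exact permutation test (p = 0.0556) or, with a minimum mean FPKM of 0.1, by limma (adjusted p = 0.302). *Ephb2* (chromosome 4, 136647539 to 136835988) was at or near 0 throughout. With saline, 2, 0, 8, 1 and 4 of its fragments were recovered, and with StcE 0, 1, 3, 1 and 2, and no difference was detectable at this depth (exact permutation p = 0.302).

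FPKM is given per kilobase of all annotated exons merged, which can be longer than any single transcript, so comparisons between genes are approximate. The merged exons of *Efnb2* cover 6855 bases, against 4793 in its longest transcript, and those of *Ephb4* 4640 against 4340. With saline the order of the levels was *Ephb4*, *Epha2*, *Efnb2*, *Efna1*, *Efnb1*, *Epha4*, *Ephb3* and *Ephb2*, and no neighbours in this order overlapped in their ranges over the 5 samples. With StcE the order was the same and again no neighbours overlapped, but *Efnb2* (16.24 to 17.46 FPKM) and *Efna1* (12.87 to 15.77) had come closer than they were with saline (23.66 to 25.9 and 17.13 to 18.94).

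The other genes of the family were looked up to place these 8. The table held 5 further ephrin and 7 further Eph receptor genes, of which *Efna5*, *Efna3* and *Ephb1* were tested. *Ephb1*, another receptor for B-type ephrins, was at 2.972, 2.731, 2.745, 2.902 and 2.239 FPKM with saline and 2.015, 1.958, 2.244, 2.23 and 2.361 FPKM with StcE, with saline replicate 5 the sole saline sample within the StcE range. Its log2 fold change was -0.23 (SE 0.0599 and, by limma, adjusted p = 0.0293), 2.17% of its exonic bases are shared with *Gm26846* on the other strand and 3.39% of its longest transcript has a near-identical copy in another gene. This call was lost when any of 8 of the 10 samples was left out (limma adjusted p of 0.0502 to 0.0733) and was kept without StcE replicate 6 or saline replicate 5. *Efna5* (log2 fold change -0.13, limma adjusted p = 0.226) and *Efna3* (log2 fold change 0.05, limma adjusted p = 0.691) did not pass the threshold.

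The remaining genes of the family had a mean FPKM under 1. *Efnb3*, the third transmembrane ephrin, was at 0.5303 ± 0.0574 FPKM after saline and 0.6998 ± 0.0715 FPKM after StcE (SD, n = 5 each). The lowest StcE sample (0.6189) lay just under the highest saline sample (0.6194), and with a minimum mean FPKM of 0.1 the difference did not pass the threshold in limma (adjusted p = 0.0674), whereas the exact permutation test of this gene alone gave p = 0.0159. *Epha7*, *Efna4*, *Efna2*, *Ephb6* and *Epha1* had mean FPKM of 0.2449, 0.2095, 0.2042, 0.08902 and 0.0795 with saline, and *Epha10*, *Epha5* and *Epha8* stayed at a mean of 0.01981 or less. *Epha3* and *Epha6* are not analysed here.

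**Figure D2:**
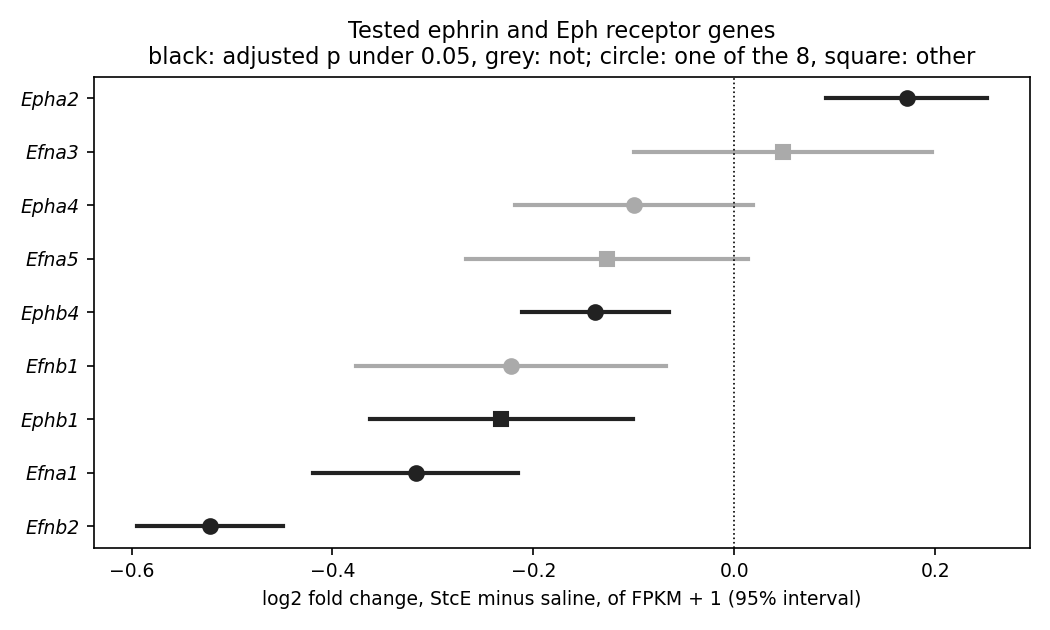
Log2 fold change (StcE minus saline, of FPKM + 1) with its 95% interval for the 9 ephrin and Eph receptor genes tested, black where the adjusted p was under 0.05. *Efnb2*, *Efna1*, *Ephb1* and *Ephb4* lie below 0 and *Epha2* above it, and the intervals of *Efna3*, *Epha4* and *Efna5* include 0.

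The members that passed the test also made up most of the family's summed FPKM. *Efnb2* and *Efna1* together held 81.99% to 84.24% of the summed FPKM of the 8 ephrin genes with saline, and *Ephb4* and *Epha2* held 96.38% to 96.7% of that of the 12 receptor genes. The summed ephrin FPKM was 49.56 to 52.94 with saline and 37.73 to 39.99 with StcE, whereas the summed receptor FPKM was 134.4 to 147.1 and 133.0 to 146.1. The ephrin sum was therefore lower in every StcE sample, and the receptor sums covered nearly the same range in both groups. The receptor sum was 2.766 ± 0.0757 times the ephrin sum with saline and 3.572 ± 0.105 times with StcE (SD, n = 5 each). These sums follow from the members' own values and were not tested.

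Within the receptors, *Ephb4* made up 61.2 ± 1.09% of the sum with saline and 56.5 ± 0.593% with StcE, and *Epha2* 35.37 ± 1.02% and 40.61 ± 0.545% (SD, n = 5 each). Between ligand and receptor, the FPKM of *Ephb4* was 3.406 to 3.561 times that of *Efnb2* with saline and 4.508 to 4.78 times with StcE. For the A-type pair, *Epha2* was 2.542 to 3.07 times *Efna1* with saline and 3.633 to 4.291 times with StcE. Both ratios were higher in every StcE sample, in the B-type pair with a larger fall of the ligand than of the receptor and in the A-type pair with a fall of the ligand and a rise of the receptor.

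**Figure D3:**
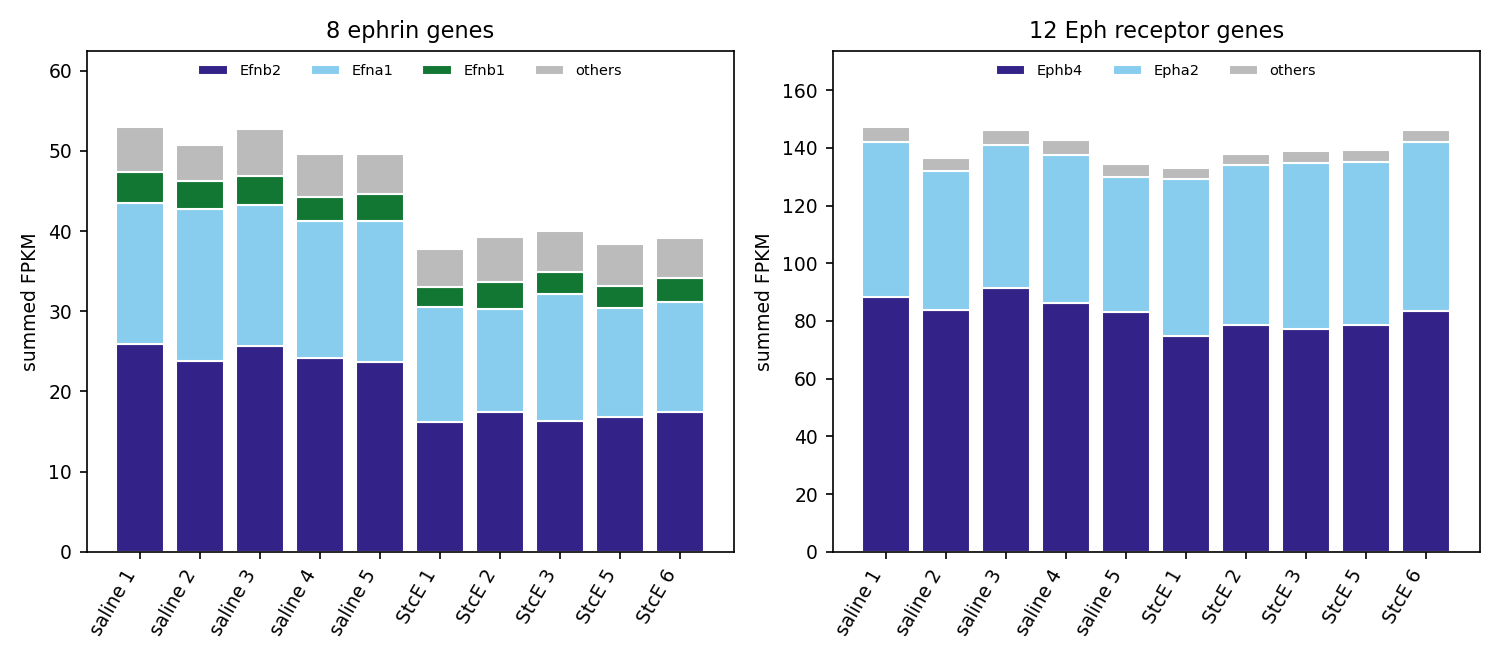
Summed FPKM (vertical axes) of the 8 ephrin genes (left) and the 12 Eph receptor genes (right) of the table in each of the 10 samples, as stacked bars. The ephrin bars are lower in all 5 StcE samples (37.73 to 39.99) than in the saline samples (49.56 to 52.94), and the receptor bars are not.

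Genes that act with ephrins and Eph receptors were read from lists of known partners. Among adaptors and kinases of forward signalling, 1 of 21 tested genes passed the threshold (4.76%, against 11.9% over all genes), with a median log2 fold change of 0.010. The gene was *Ptk2*, focal adhesion kinase, which was lower and went from 25.77 ± 0.231 to 24.29 ± 0.757 FPKM (log2 fold change -0.08, limma adjusted p = 0.0470). Adaptors such as *Nck1*, *Nck2*, *Grb2* and *Crk*, the kinases *Src*, *Fyn* and *Abl1* and the Ras regulator *Rasa1* did not pass it. Of these, *Crk* was higher in every StcE sample than in any saline sample (70.08 ± 0.973 to 73.53 ± 1.82 FPKM). Its limma adjusted p was 0.0671 and its exact permutation p was 0.00794.

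Of 9 tested partners of ephrin-B reverse signalling, 1 passed the threshold (11.1%, against 11.9% over all genes), with a median log2 fold change of 0.015. The lower gene was *Rgs3*, whose product binds ephrin-B and damps G protein signalling. It was at 10.42, 10.03, 10.23, 10.14 and 9.493 FPKM with saline and at 8.012, 8.307, 7.78, 7.996 and 8.448 FPKM with StcE, so that the groups did not overlap, with a log2 fold change of -0.28 (SE 0.0308 and, by limma, adjusted p = 2.1e-04). The list of proteases and phosphatases that cut or silence ephrins and Eph receptors had 10 tested genes. Of these, 2 passed the threshold, both lower (20%, against 6.41% lower over all genes). The median of the list was -0.11 and all 10 log2 fold changes were below 0, as were 5576 of the 11062 over all genes. *Adam10*, a protease that cuts ephrins and other membrane proteins, went from 66.56 ± 1.75 to 60.13 ± 2.2 FPKM (log2 fold change -0.14, limma adjusted p = 0.00852). *Aph1a*, a subunit of γ-secretase, went from 30.07 ± 0.548 to 28.17 ± 0.8 FPKM (log2 fold change -0.09, limma adjusted p = 0.0334). The calls of *Ptk2* and *Aph1a* depended on the processing. That of *Ptk2* was lost in 9 of the 10 fits that left out a sample and in 8 of 10 other settings, with a limma adjusted p of up to 0.242, and that of *Aph1a* in 7 and 4 of them, with an adjusted p of up to 0.218.

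As *Efnb2* and *Ephb4* mark arteries and veins, other genes of arterial and venous identity were read beside them. The 12 tested arterial genes, which do not include *Efnb2*, had a median log2 fold change of -0.12. Of these, 3 passed the threshold, all lower (25.0%, against 6.41% lower over all genes). They were *Hey1*, a Notch target (1.552 ± 0.11 to 0.9799 ± 0.16 FPKM, log2 fold change -0.37, limma adjusted p = 0.00304), *Dll4*, a Notch ligand (38.45 ± 3.73 to 31.23 ± 2.32 FPKM, log2 fold change -0.29, limma adjusted p = 0.0165), and *Acvrl1*, a receptor for BMP9 and BMP10 (log2 fold change -0.30). All lists were chosen with earlier results of these data known, and *Acvrl1* is also a gene the study itself names from these samples. The count of 3 is therefore not independent evidence. The groups did not overlap for any of the 3, but the call of *Dll4* was lost without a minimum FPKM (limma adjusted p = 0.0602). *Gja5*, the arterial connexin 40, had a log2 fold change of -0.51 but varied widely between samples (3.989 to 9.552 FPKM with saline and 3.539 to 6.885 with StcE, limma adjusted p = 0.112). With voom on the recovered fragments, 6 of the 12 passed, all lower, with *Gja5* (adjusted p = 0.0316), *Cxcl12* (0.0256) and *Unc5b* (0.0344) beside the 3 above, and so did *Gja4* (0.0358), which was below the minimum FPKM. Of 5 tested venous genes, 0 passed the threshold in limma and 0 with voom on the recovered fragments. *Tll1*, which was higher after StcE (log2 fold change 0.16), was the 1 gene with an unadjusted limma p under 0.05. The log2 fold changes of the other 4 were below 0, and the list median was -0.0055. *Nr2f2*, the transcription factor that sets venous identity, was at 9.827 ± 0.566 FPKM with saline and 9.474 ± 0.703 with StcE (limma adjusted p = 0.574). The difference between the arterial and the venous list was not tested.

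**Figure D4:**
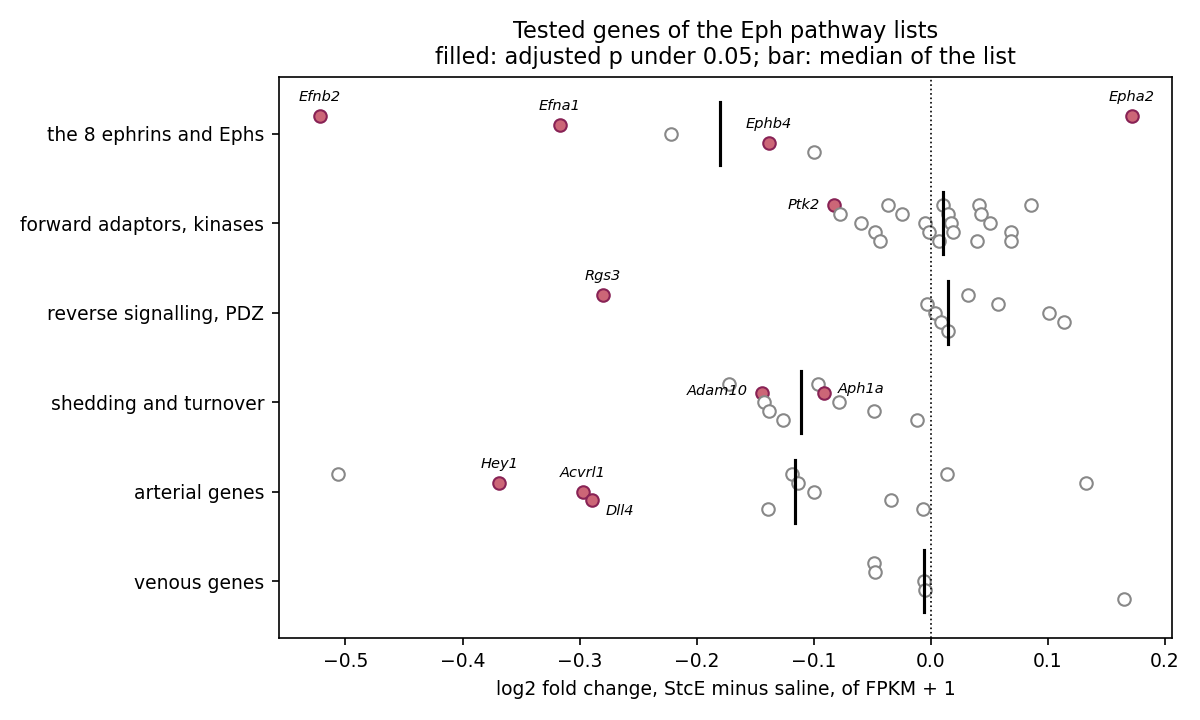
Log2 fold change (StcE minus saline, of FPKM + 1) of every tested gene in 6 lists, filled and named where the adjusted p was under 0.05, with the median of each list as a bar. The arterial genes and the genes of shedding and turnover have medians of -0.12 and -0.11, and the other lists of partners lie around 0.

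The genes whose levels ran most like those of the 4 members past the threshold were found by Pearson's r of log2(FPKM + 1) over the 10 samples, which is given as a description since the samples fall into 2 groups and every gene shares the same libraries. Closest to *Efnb2* were *Fam43a* (r = 0.989) and *Timp3* (r = 0.988), an inhibitor of metalloproteases, which went from 56.29 ± 1.63 to 43.68 ± 1.81 FPKM. *Gbp7* (r = 0.985) and *Pde1a* (r = 0.977) were closest to *Efna1*, and *Sorbs2* (r = 0.976) and *Cdk19* (r = 0.967) to *Ephb4*. Closest to *Epha2* were *Eaf1* (r = 0.971) and *Spry2* (r = 0.967), a feedback inhibitor of receptor tyrosine kinase signalling, which went from 10.75 ± 0.77 to 12.75 ± 0.391 FPKM.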

How the data were processed

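Poly-adenylated RNA of 10 bEnd.3 samples was made into strand-specific libraries and sequenced as read pairs. The authors aligned trimmed reads to GRCm38 and deposited FPKM per sample. The submitters' processing notes list HISAT2 2.0.5, featureCounts 1.5.0-p3 and DESeq2 1.32.0. The annotation release and the strand setting of the counting are not given in the sources used here. Of 49898 rows, 22874 were empty and left out.

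Whole fragments were recovered from the FPKM with exon lengths of GENCODE vM21, and 96.64% of the values above 0 came out whole within 0.05 fragments. The scale of each sample followed its median-of-ratios size factor within 0.0467% and the total of fragments only within 1.52%, so the deposited FPKM had already been normalized between samples. Replicates differed by more than sampling noise (chi-square per degree of freedom 3.38 to 9.81). Counts of fragments cover counting error only.

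The 11062 genes whose FPKM averaged 1 or more were kept. Their log2(FPKM + 1) values were compared between saline and StcE in limma 3.58.1 under R 4.3.3, using eBayes with a trend and no other covariate, and p-values were adjusted by Benjamini-Hochberg over these genes. This replaces the count test of the study's methods, since the deposited values are FPKM. Single genes were also tested by exact two-sided permutation over 252 arrangements. The procedure was tested on simulated data. BLAST 2.17.0 was used to find stretches of 150 bases or more that match another gene with 95% identity or higher.

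The 8 members and all lists were chosen with earlier results of these data known, and 1 list of partners is not reported here. The genes named are the 8 members, the other ephrin and Eph genes, up to 4 genes past the threshold from each list of partners and the 2 genes most like each member past the threshold. *Gja4*, *Gja5*, *Cxcl12*, *Unc5b*, *Nr2f2*, *Tll1* and the list members named as not passing were chosen after their values were seen. Alternatives were a pseudocount of 0.1, a minimum mean FPKM of 0.1 or none, scaling by the upper quartile or the total FPKM, eBayes without trend or with robust, the replicate number as a block, and each sample left out in turn. Added after the data were seen were voom on the recovered fragments of genes with a mean of at least 10, and the 8 samples of the block without it.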

Additional observations from a re-analysis of the deposited data

Results flagged for a closer look

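Among 20 genes examined in both groups, 1 of 40 groups had a sample far from the others, where chance gives about 2. In saline replicate 2, *Efna1* reached 18.94 FPKM, whereas the other saline samples held 17.13 to 17.54 FPKM. Without that sample its log2 fold change was -0.29 (limma adjusted p = 0.00448), and the difference stayed past the threshold.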

How the results depend on the processing

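*Efnb2* and *Efna1* were past the threshold in all 20 alternative fits each, with log2 fold changes of -0.55 to -0.51 and -0.36 to -0.29. With the replicate block, the limma adjusted p was 0.00352 for *Efnb2* and 0.0491, just under the threshold, for *Efna1*. All 6 tested members kept their sign in all 20. *Epha4* did not pass in any, and moved from -0.10 to -0.06 with the 8 samples of the block, with or without it, to -0.17 with a pseudocount of 0.1 and to -0.16 with voom. *Epha2* was 0.17 with the replicate block (limma adjusted p = 0.0991), and 0.15 to 0.20 with each sample left out. *Ephb4* was -0.14 without a filter (adjusted p = 0.0604) and -0.16 with the replicate block (0.0874), and -0.16 to -0.12 with each sample left out. *Efnb1* passed the threshold with the 8 samples of the block without it (-0.28, adjusted p = 0.0438) and with voom (-0.31, 0.0261), and ranged from -0.27 to -0.19 with each sample left out. The difference of *Ephb3* was -0.087 with total FPKM scaling (exact permutation p = 0.0317) and -0.10 to -0.062 with each sample left out. The cause was not tested.

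Of all genes, 1320 passed the threshold as reported, 801 without a filter (409 lower, 392 higher), 790 with total FPKM scaling (272 higher), 349 with the replicate block over 8 samples (162 lower, 187 higher) and 793 to 1255 with each sample left out (409 to 667 lower, 384 to 588 higher). Leaving out StcE replicate 3 gave 793 and leaving out saline replicate 1 gave 838. The 8 samples without the block gave 885 (452 lower). Samples of the same number did not deviate together over all genes (r of -0.0966 to 0.0538 over 4 pairs). Samples of different number had r of -0.179 to 0.131. These correlations gave no sign of pairing by number, but they cannot exclude a shared source that affects only some genes. The block also ended the calls of *Ephb1* (adjusted p = 0.152), *Hey1* (0.0668), *Dll4* (0.0774), *Adam10* (0.14), *Ptk2* (0.242) and *Aph1a* (0.218).

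Depth limits *Ephb2*, with 0 to 8 fragments per sample, and *Ephb3*, with 27 to 74.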

Other observations

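Within the groups, the members also varied from sample to sample. With each sample taken as its deviation from its group mean of log2(FPKM + 1), *Efnb2* and *Ephb4* ran together over the 10 samples (r = 0.857), as did *Efnb2* and *Efnb1* (r = 0.781), whereas *Efna1* ran opposite to *Efnb2* (r = -0.537). *Epha2*, which differed between the groups in the other direction from *Ephb4*, ran with it inside the groups (r = 0.609). Saline replicates 1 and 3 were the highest saline samples for both *Efnb2* and *Ephb4*, and StcE replicate 1 was the lowest StcE sample for both. These values describe 10 samples whose genes share a library and a scale, and no test was made of them.

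*Mmp14*, a protease that cuts EphA2, was at 10.32 ± 0.667 and 9.264 ± 0.738 FPKM (limma adjusted p = 0.107). It was looked up after its values were seen.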
